A study of Mus musculus with 11 samples.

Results

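P53 binding was compared between wild type (WT) cells and cells in which both Wdr5 and p53 (gene symbol Trp53) were knocked out (DKO), from CUT&RUN peak lists made with an antibody against P53. The members were the P53 regions of WT, defined as merged intervals on chromosomes 1 to 19, X and Y that overlapped a peak in both WT lists. Each was called absent from DKO where it shared no base with a peak of either DKO list, and shared where it shared 1 base or more. There were 288 such regions, of which 215 were absent from DKO and 73 were shared. The 11 lists of the series held 19707 peaks on these chromosomes, 396 and 294 of them in the WT P53 lists and 99 and 179 in the DKO P53 lists.

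All cells were mouse embryonic stem cells that carry GFP at Rx (gene symbol Rax), an eye field gene, and were grown as embryoid bodies by the SFEBq method, a serum-free aggregate culture, in GMEM with 5% KSR. Doxycycline was withdrawn from the cultures at day 0, matrigel (2%) followed at day 1, and profiling at day 2 used 2 µg of antibody for 2 M (mega) cells. The groups were WT and DKO for P53, WT and DKO for WDR5, and WT, Wdr5 knockout (KO) and DKO for H3K4me3. The labels do not say what doxycycline controlled, in which cell line or clone each allele was made, or whether the lists of a group came from separate cultures. No P53 library of cells lacking Wdr5 alone was analysed here, so a difference between WT and DKO cannot be told apart between the loss of p53 and the loss of Wdr5.

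P53 is a transcription factor that binds DNA as a tetramer, and its response element consists of a pair of half-sites separated by a short spacer. Stress signals release P53 from the ubiquitin ligase MDM2 and its partner MDM4, and P53 then activates genes for cell cycle arrest such as Cdkn1a, for apoptosis such as Bbc3, and for DNA repair and metabolism. In embryonic stem cells P53 is abundant and takes part in the response to DNA damage and in the exit from pluripotency. In CUT&RUN a nuclease tethered to the antibody releases the DNA around its binding sites, and in cells that lack the antibody's target the released DNA measures the background of the assay. WDR5 holds together the MLL and SET1 histone methyltransferases, and H3K4me3, trimethylated lysine 4 of histone H3, marks active promoters.

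No genome sequence was used here, so DNA letters were read only where a P53 region met a promoter window, the 250 bases before to the 50 bases after a gene start in RefSeq promoters of build GRCm38.p6 (mm10). A script searched both strands for the p53 half-site, a motif of 10 bases, and for 2 half-sites that did not overlap and were separated by 0 to 13 bases. Of 32851 windows, 2745 (8.36%) held a half-site and 24 (0.0731%), in 20 genes, held 2 half-sites in that arrangement. Only 4 windows (0.0122%) overlapped an absent region, and 5 more (0.0152%) overlapped a peak that WT list 1 alone called and that was missing from DKO. The 250 bases before the gene start are shown for 4 of these, because they hold the windows with 2 half-sites, 1 half-site and none. They are on the plus strand, 5′ to 3′, with half-sites in capitals: Gm51651, a long non-coding RNA (chr1:155056274-155056523), Cdkn1a, the CDK inhibitor p21 (chr17:29090729-29090978), Exoc4, an exocyst subunit (chr6:33248878-33249127), and Sp1, a GC-box transcription factor (chr15:102406066-102406315).
Gm51651: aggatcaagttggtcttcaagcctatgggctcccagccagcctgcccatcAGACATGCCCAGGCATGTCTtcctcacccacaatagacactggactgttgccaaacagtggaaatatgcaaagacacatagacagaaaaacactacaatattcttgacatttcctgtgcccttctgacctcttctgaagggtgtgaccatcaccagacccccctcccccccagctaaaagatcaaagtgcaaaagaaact
Cdkn1a: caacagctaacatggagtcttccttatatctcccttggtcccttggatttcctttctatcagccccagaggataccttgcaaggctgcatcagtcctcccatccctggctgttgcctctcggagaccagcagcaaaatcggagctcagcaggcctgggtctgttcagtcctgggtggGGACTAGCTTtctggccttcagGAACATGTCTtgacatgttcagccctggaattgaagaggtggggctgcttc
Exoc4: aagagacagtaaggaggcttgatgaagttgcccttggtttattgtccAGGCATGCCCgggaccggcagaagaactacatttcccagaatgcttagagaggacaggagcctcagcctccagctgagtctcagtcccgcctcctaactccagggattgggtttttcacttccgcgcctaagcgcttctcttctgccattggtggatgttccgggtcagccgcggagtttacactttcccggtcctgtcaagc
Sp1: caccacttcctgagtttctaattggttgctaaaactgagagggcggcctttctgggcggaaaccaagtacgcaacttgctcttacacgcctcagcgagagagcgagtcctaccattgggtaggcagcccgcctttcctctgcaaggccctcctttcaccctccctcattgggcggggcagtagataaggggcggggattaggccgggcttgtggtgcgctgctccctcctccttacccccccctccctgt

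Of the 24 promoter windows with 2 half-sites, none of them on chromosome 18, for which the table has no windows, those of Gm51651 and Cdkn1a were the 2 that overlapped a WT P53 peak. In Gm51651 the half-sites AGACATGCCC and AGGCATGTCT began 200 and 190 bases before the start, with no base between them. The absent region covered the whole window and both half-sites, had fold enrichments of 5.34 and 5.29 in the WT lists, and its summit lay 4 bases after the start. The nearest protein-coding gene was Ier5, an immediate early response gene, whose span lay 39616 bases away. In Cdkn1a the half-sites GGACTAGCTT and GAACATGTCT began 73 and 51 bases before the start, with 12 bases between them. The peak there was called in WT list 1 only, at a fold enrichment of 4.76, and ran from 302 to 65 bases before the start, so that it held 9 of the 20 bases of the half-sites.

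In Exoc4 the single half-site AGGCATGCCC began 203 bases before the start, outside the absent region, which ended 234 bases before it. The windows of Sp1 and of the non-coding gene Gm34657 held no half-site, which says only that these letters do not occur in those 300 bases. Of the 5 windows under a peak of WT list 1 alone, the one of Ccdc30 held none. The pair of windows of Aen, an apoptosis-enhancing nuclease, and that of its divergent neighbour Gm39039 hold the same bases, GGGCTTGTCC read from the Aen strand, so their half-sites are 1 site and not 3. Thus 6 of the 9 windows held a half-site, but 3 of these 6 hold the same site, which leaves 4 separate loci. At 1 of the 4, Exoc4, the half-site lay outside the region. Of all windows 8.36% held one, a share that counts windows and not loci. The 6 windows that overlapped a DKO P53 peak (0.0183%) belong to 3 genes and held none, which is near the background share. They are too few for a comparison with WT. These are descriptions of a few windows, and a match is not evidence of binding to those bases.

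Before the regions were compared, the lists of each group were checked for shared reads. In WT, 236 of the 294 summits of list 2 (80.3%) coincided to the base with one of list 1, and at 235 of them (99.6%) the pileup, the number of fragments over the summit, was not higher in list 2, which had 0.905 times the fragments of list 1. Between P53 lists and lists of other groups, at most 7.07% of summits coincided over 32 pairs. The WT lists were therefore counted as 1 library. In DKO, 19 of the 179 summits of list 2 (10.6%), or 19.2% of those of list 1, coincided, and list 2 was higher at all 19, with a median pileup ratio of 1.51 at 1.75 times the fragments. The headers of both DKO list 2 and WT list 2 name a merged alignment. What had been merged was not established, nor was the independence of DKO list 2 from DKO list 1. Each genotype was thus taken as n = 1, no test between genotypes was possible, and the intervals given with shares are Wilson 95% intervals that cover counting error over regions only.

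Depth and peak numbers went in opposite directions. The WT lists rested on 26.4 M and 23.9 M (mega) fragments and the DKO lists on 32.8 M and 57.5 M. The mean number of peaks per list was 2.48 times higher in WT than in DKO, and leaving out 1 list at a time gave 1.93 to 3.48 times. Among peaks with a fold enrichment of at least 5, which sets the pileup against the background around the peak, it was 3.99 times. Even an exact permutation test over the 4 lists, were they separate libraries, could not go below p = 0.333.

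Of the 288 WT P53 regions, 74.7% (69.3 to 79.3%) were absent from DKO and 25.3% (20.7 to 30.7%) were shared. In reverse, of the 87 regions called in both DKO lists, 24 (27.6%, 19.3 to 37.8%) were absent from both WT lists. The split was therefore lopsided between the genotypes as the lists stand. It depended on list length: with each P53 list kept to the 99 peaks of highest fold enrichment, the shares were 68.5% for WT and 60.7% for DKO. Over single lists, 78.5% and 75.2% of the peaks of WT lists 1 and 2 and 31.3% and 54.2% of those of DKO lists 1 and 2 met no peak of the other genotype.

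Most shared regions did not depend on the deeper DKO list. Of the 73, 57 were called in both DKO lists, 16 in list 2 only and 0 in list 1 only. Overlaps were broad, with a median of 383 bases and a minimum of 188, and 63 of 73 covered at least 50% of the WT region. Only 2 absent regions lay within 5 kb of a DKO peak. They were 1 in Sfi1, a centrosome gene, at 100 bases, with fold enrichments of 2.17 and 2.16, and 1 in Ncoa1, a nuclear receptor coactivator, at 1043 bases, with 3.58 and 3.65.

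Absent regions were not confined to weak peaks. Their fold enrichment in WT list 1 ranged from 2.17 to 38.5 with a median of 6.29, and the median in list 2 was 6.04. Shared regions had medians of 6.54 and 6.70. When regions were ranked by the lower of the WT fold enrichments and cut into 4 bins, the absent share was 58.3% in the lowest bin (42 of 72), 93.2% in the second (68 of 73), 85.9% in the third (61 of 71) and 61.1% in the highest (44 of 72). Both ends of the ranking thus held more shared regions than the middle.

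**Figure D1:**
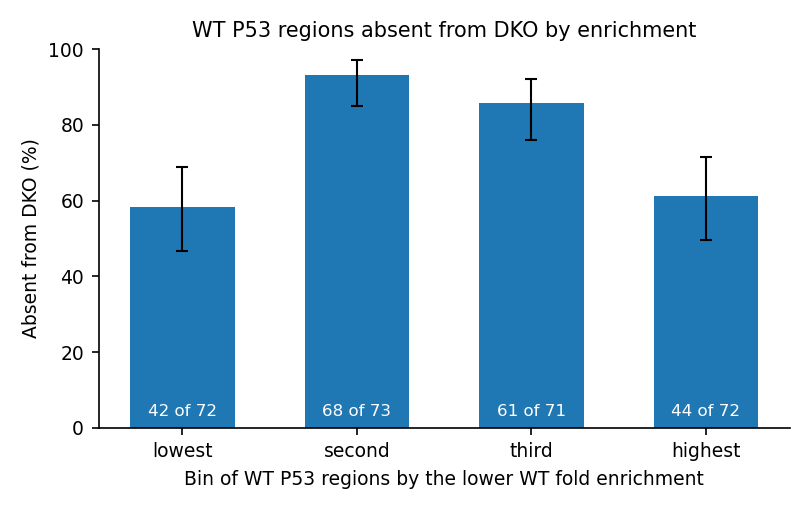
Share of WT P53 regions absent from both DKO lists, in percent, by bin of the lower WT fold enrichment; error bars are Wilson 95% intervals. The share is 93.2% in the second bin and 85.9% in the third, above 58.3% in the lowest and 61.1% in the highest.

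The depth of the DKO lists was compared with the height of the absent regions. Scaled to the fragments of each DKO list, the WT pileups of all 215 absent regions lay above the lowest pileup called there, which was 16 fragments in list 1 and 21 in list 2. This limit is low, since nearly any peak called in WT would pass it. The scaled pileup reached the median of DKO list 1, 40 fragments, in 81 of the 215 from WT list 1 and 75 from WT list 2, and the median of DKO list 2, 45 fragments, in 195 and 184. In 201 of the 215 the lower WT fold enrichment was at or above the median of DKO list 2, 4.41, and in 159 it was at or above that of DKO list 1, 5.27. Signal at these places in DKO below the peak caller's threshold was not analysed here.

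The 2 classes differed in whether other antibodies also gave a peak. Of the 215 absent regions, 198 (92.1%, 87.7 to 95%) met no peak of any of the 7 WDR5 and H3K4me3 lists. Of the 73 shared regions, 65 (89.0%, 79.8 to 94.3%) met at least 1 such peak, and 37 (50.7%) met a peak in all 7. A WDR5 peak of any list lay at 3.26% of absent (7 of 215) and 74.0% of shared regions (54 of 73). An H3K4me3 peak of any genotype lay at 6.98% (15 of 215) and 86.3% (63 of 73). By list, a WDR5 peak lay at 49 and 47 of the 73 shared regions in WT and at 51 in each DKO list. At absent regions the counts were 6 and 4 of 215 in WT and 2 in each DKO list. DKO cells are labelled as lacking Wdr5, so overlap with a WDR5 list is not read here as WDR5 binding. Of the 87 regions called in both DKO lists, 78 (89.7%) met another list, but 63 of the 87 overlap WT peaks and are largely the shared regions themselves. Of the 24 that were absent from WT, 18 (75%) met another list, 9 (37.5%) met a WDR5 list and 1 (4.17%) met all 7.

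**Figure D2:**
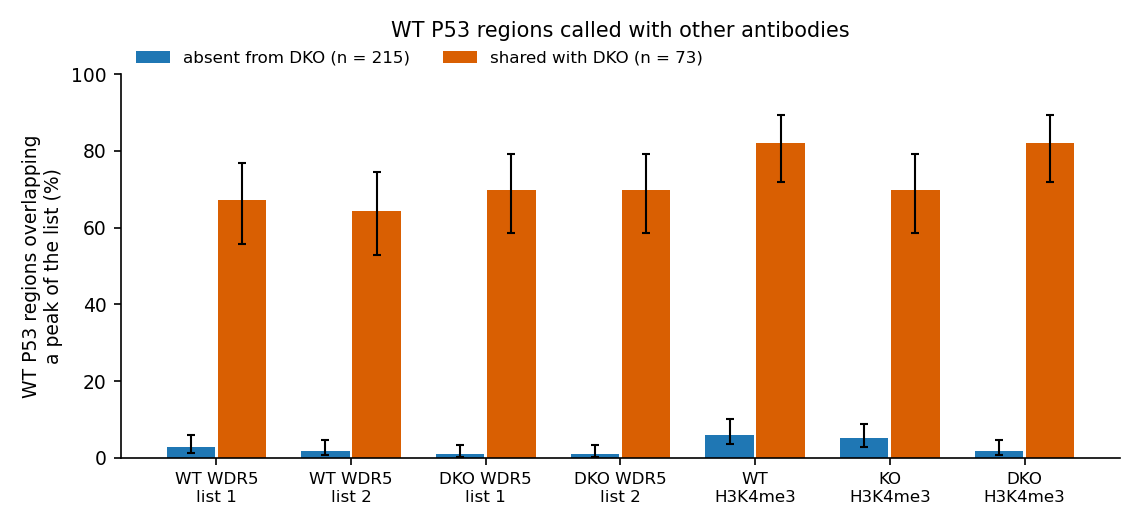
Percent of WT P53 regions absent from DKO (blue) or shared with DKO (orange) that overlap a peak of each WDR5 or H3K4me3 list by 1 base or more; error bars are Wilson 95% intervals. Absent regions reach at most 6.05%, in WT H3K4me3, and shared regions lie between 64.4% and 82.2%.

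Few absent regions met an H3K4me3 peak, with 13 of 215 (6.05%) for WT, 11 (5.12%) for KO and 4 (1.86%) for DKO. Of the 73 shared regions, 60, 51 and 60 met one. For comparison, the share of protein-coding genes with such a peak within 1 kb of either end was 35.5% in the WT list, 3.2% in the KO list and 22.8% in the DKO list. The share of absent regions was below it in WT and DKO but not in KO. The measures are unlike, since genes were counted near their ends and regions by overlap. Leaving out every region of a WDR5 list raised the share of WT regions absent from DKO to 91.6% (208 of 227), and that of DKO regions absent from WT to 68.2% (15 of 22). Leaving out those of the H3K4me3 lists too gave 96.1% (198 of 206) and 66.7% (6 of 9).

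Within the shared regions, those that other antibodies also gave and those of the P53 antibody alone had unlike values. This division was made after the values had been seen and is given as a description. In the 65 regions also called with another antibody, the median fold enrichment was 5.53 in WT list 1, 5.87 in WT list 2 and 5.19 in DKO list 2, and the median log2 ratio of DKO list 2 to WT list 1 was 0.03. DKO list 2 was above both WT values in 32 of them, below both in 25, and between them in the rest. In the 8 regions of the P53 antibody alone, the medians were 14.3, 13.2 and 4.85, and the median log2 ratio was -1.50. All 8 were lower in DKO list 2 than in either WT list, and 6 of the 8 were called in DKO list 2 only. Per M fragments, their median pileup was 3.95 in WT list 1 and 0.652 in DKO list 2.

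**Figure D3:**
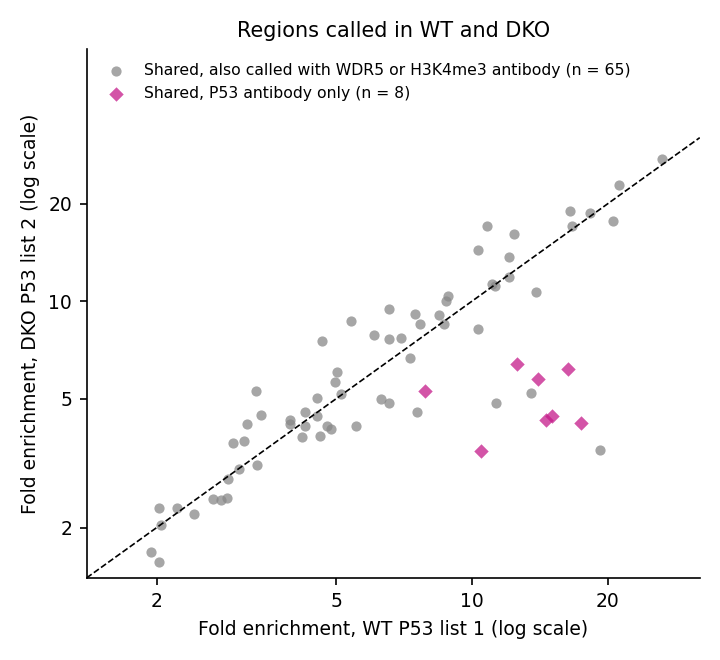
Fold enrichment in WT P53 list 1 (x axis, log scale) against DKO P53 list 2 (y axis, log scale) of the 73 shared regions; the dashed line marks equal values. The 65 regions also called with another antibody (grey) lie around the line, with a median log2 ratio of 0.03, and the 8 of the P53 antibody alone (diamonds) lie below it, with a median of -1.50.

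The 8 regions were near named genes of varied function. The region at Bst2, which encodes the antiviral membrane protein tetherin (chr8:71530888-71531452, 2803 bases outside the gene), had fold enrichments of 17.5 and 15.6 in WT and 4.20 in DKO list 2, with no peak in DKO list 1. The region in Cd302, a C-type lectin receptor (chr2:60268415-60269070), had 15 and 14.6 in WT and 4.41 in DKO list 2. The region in Ncoa1 (chr12:4357051-4357888) was called in all 4 lists, with WT values of 12.6 and 11.7 and DKO values of 7.12 and 6.42. The region in Cenpp, a centromere protein gene, was the other one called in all 4, at 14.0 and 12.6 in WT against 6.41 and 5.74 in DKO. The rest lay in Glipr2 and Gm29721 and near Ythdc1, an m6A reader, and Sall1, a zinc finger factor. In all 8 the WT values were the higher ones and the WT and DKO values did not overlap.

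A region 3653 bases outside the zinc finger gene Zfp981 (chr4:146497467-146498347) had 19.3 and 17.6 in WT and 3.46 in DKO list 2, and was also called in the WT WDR5 lists at 3.48 and 3.6. Another region, 181 bases outside Zfp958, had 13.5 and 12.8 in WT, 6.68 and 5.22 in DKO, and an H3K4me3 peak in DKO at 3.17. Over all 73, DKO list 2 was below 50% of the lower WT value in 9, of which 6 were among the 8 regions of the P53 antibody alone.

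**Figure D4:**
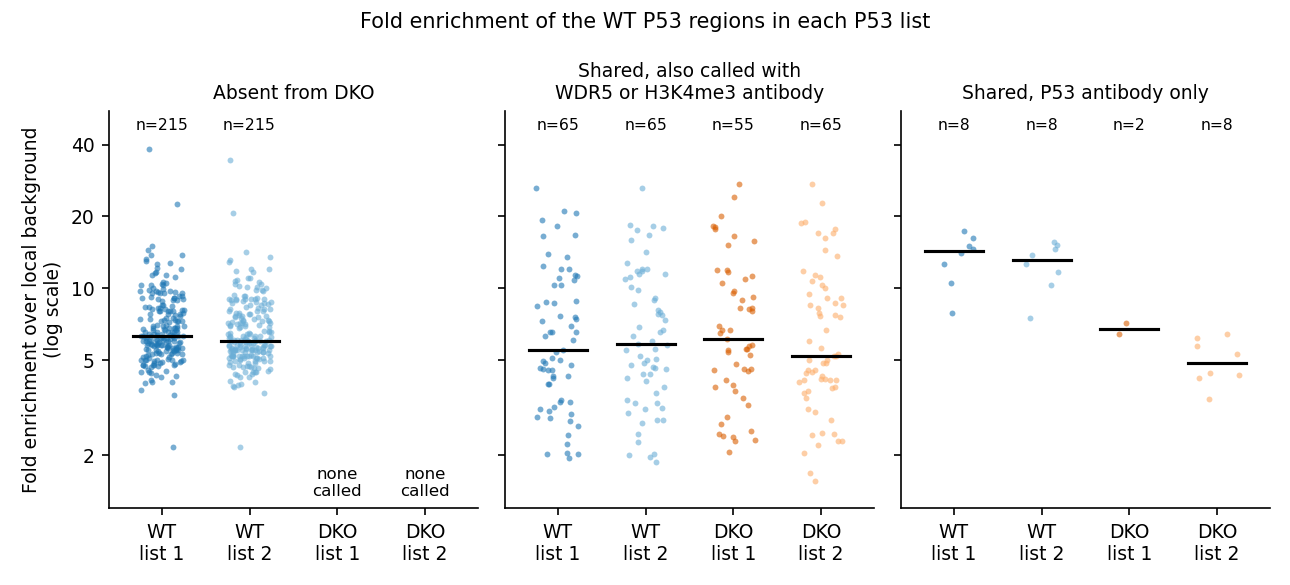
Fold enrichment over the local background (log scale) of each WT P53 region in each P53 list, by class, with the median as a bar and the number of called regions above. Absent regions have medians of 6.29 and 6.04 and no DKO value by definition, and the 8 shared regions of the P53 antibody alone have medians of 14.3 and 13.2 in WT against 4.85 in DKO list 2.

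The 10 highest shared regions were ranked by their lowest fold enrichment in any P53 list that called them. This ranking uses the DKO values and so leaves out regions that were high in WT and low in DKO, such as those at Zfp981, Bst2, Gm29721 and Cd302, which rank among the 10 highest by the WT values alone. The 10 are therefore examples of regions high in every P53 list, and no comparison between genotypes is drawn from them. Each was also called in the other 7 lists. The region 29284 bases from Rpusd4 (chr9:35305241-35305576) had 26.3 in both WT lists and 27.3 and 27.4 in DKO. The region in Aida (chr1:183299154-183299583) had 18.3 in both WT lists and 17.7 and 18.7 in DKO. The region nearest to Lrrc4c, although more than a megabase from it (chr2:98666303-98667329), had the highest pileups, 8488 and 6189 fragments in WT against 10330 and 12001 in DKO.

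Shared regions also lay closer together. Another shared region lay within 100 kb of 40 of the 73 (54.8%), and another absent region lay within 100 kb of 12 of the 215 (5.58%). The largest groups were 11 shared regions over 38.2 kb at the start of the mapped sequence of chromosome 9, nearest to Alkbh8, and 8 over 72.8 kb at Sfi1 on chromosome 11. The shares given for shared regions count such neighbours as separate members, so their intervals may be too narrow. On chromosome Y there were 4 shared and 0 absent regions. Chromosomes 6, 18 and 19 had 0 shared regions and 12, 9 and 10 absent ones. Chromosome 1 had 3 shared regions and 27 absent ones, the most absent regions of any chromosome. These counts were not set against chromosome length.

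Most WT P53 regions lay away from gene ends in both classes. Of the absent regions, 154 (71.6%) overlapped no protein-coding gene span, 12 (5.58%) lay within 1 kb of either end of one, 37 (17.2%) within 5 kb and 147 (68.4%) within 50 kb, and the median distance to the nearest end was 20309 bases. Of the shared regions, 63.0% overlapped no protein-coding gene, 3 (4.11%) lay within 1 kb of an end, and the median distance was 22282 bases. The intervals of these shares overlapped between the classes. The share of the genome at these distances was not computed, so whether the regions differ from it was not tested. Exons and introns were not used here.

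The 20 absent regions of highest fold enrichment, ranked by the lower WT value, had pileups of 47 to 627 fragments in WT list 1. Of these, 9 lay inside a protein-coding gene, 7 were over 10 kb from one, and 18 met no other list. The highest, in Chl1, a neural cell adhesion molecule (chr6:103648792-103649292), had 38.5 and 34.5 in WT. It was the only one of the 20 called with the WDR5 antibody, in all 4 lists at 38.2 to 43.7. The WT and DKO H3K4me3 lists called it at 33.6 and 34.4. The next, 12371 bases outside Rps6ka1, a ribosomal S6 kinase (chr4:133900168-133900620), had 22.6 and 20.7 and was in no other list. Regions in Cemip2, a cell surface hyaluronidase (15 and 14.2), Mtmr10, a myotubularin-related protein (14.5 and 13.5), and Npl, a sialic acid lyase (13.7 and 12.9), were likewise called with the P53 antibody alone. A region in Zfp809, a zinc finger gene known for silencing retroviral DNA, had 13.8 and 13.2 and also a WT H3K4me3 peak at 4.17.

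The remaining 14 regions of the 20 had a lower WT fold enrichment of 10.05 to 12.1. Among them were regions in Bbc3, Sos2, a Ras exchange factor, and Ppp6r3, a phosphatase subunit. Others lay outside Lemd1, Zmym5, Rims1, Srrm1, AU018091, Nrg1 (a neuregulin), Zfp945, Ndufaf6 and Actr2, at 2815 bases in the case of Rims1 and 47278 in that of AU018091. None of the 14 was in any other list. The group has no single function by name, and a nearest gene is a matter of position only.

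The known target genes of P53 were read from 4 lists with 55 genes in all. An end of 4 of the 55 (7.27%) lay within 5 kb of an absent region, against 41 of 21883 protein-coding genes (0.187%). The 4 were Bbc3, Zmat3 and Eda2r, of 14 apoptosis genes, and Plk2, of 20 genes of arrest and feedback. None of 7 DNA repair genes and none of 14 metabolism and autophagy genes had one. No target gene had a shared region or a region called in both DKO lists within 5 kb of an end, where the background was 0.0868% and 0.096% of protein-coding genes. At shares of that size a count of 0 among 55 genes is near the background.

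Bbc3, which encodes the BH3-only protein PUMA, had the highest of these peaks (chr7:16308453-16309305). Its fold enrichment was 12.8 in WT list 1 and 11.7 in WT list 2, at pileups of 85 and 68 fragments, and neither DKO list called a peak. The region began 55 bases inside the 5′ end of the gene. Zmat3, a zinc finger RNA-binding protein of the P53 response, had 8.95 and 8.35 at pileups of 48 and 40 (chr3:32363998-32364710), within the gene and 955 bases from an end. This region also met a WT H3K4me3 peak at 3.47.

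Eda2r, a receptor of the TNF receptor family that binds ectodysplasin A2, had a weaker peak 191 bases inside its 5′ end (chrX:97376690-97377043), at 4.78 and 4.67 and pileups of 18 and 16. Plk2, a polo-like kinase, had 7.79 and 7.36 at pileups of 31 and 27 (chr13:110392459-110392960), and its summit lay 2257 bases before the gene start. In all 4 genes the WT lists, which share reads, gave close values, and the DKO lists were without a peak.

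WT list 1, with more fragments, added 3 target genes by peaks that list 2 did not call. They were Aen at 5.28, Cdkn1a at 4.76 and Trp53inp1, a stress protein that promotes P53 activity, at 4.45, with pileups of 20, 25 and 20. With WT list 1 alone the count was thus 7 of 55 targets, against 0.32% of protein-coding genes. Over the whole of that list, 108 peaks were not met by list 2, of which 96 were absent from DKO, with a median fold enrichment of 4.58 for the 108. No P53 peak of any list lay closer to Gdf15 than 17178 bases (list 1 only, 4.63) or to Btg2, an antiproliferative factor, than 21572 bases (5.86 and 6.06).

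**Figure D5:**
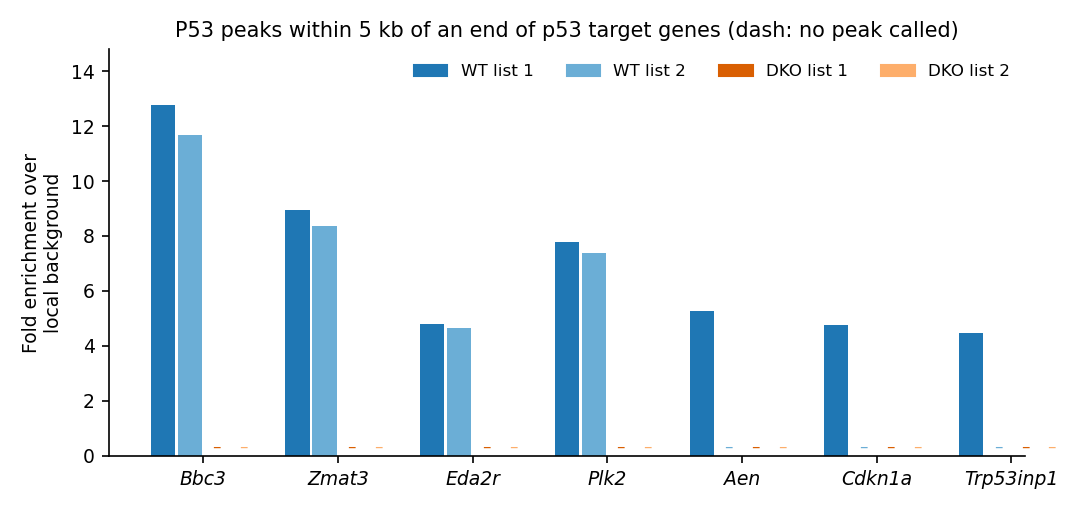
Fold enrichment of the P53 peak within 5 kb of an end of each p53 target gene that had one, by list; a dash marks a list without a peak. Bbc3, Zmat3, Eda2r and Plk2 have a peak in both WT lists (4.67 to 12.8), Aen, Cdkn1a and Trp53inp1 in WT list 1 only (4.45 to 5.28), and none has one in DKO.

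Among 19 regulators and relatives of P53, none had an end within 5 kb of an absent region, but Mdm4, which encodes the MDM2 partner that restrains P53, held one inside the gene. That region (chr1:133020357-133020616) had fold enrichments of 4.72 and 4.73, with a summit 4995 bases from a listed gene start. An absent, shared or DKO region lay inside or within 5 kb of 0.42%, 0.151% and 0.183% of protein-coding genes. It did so at none of 18 genes of mesoderm and endoderm, 18 of the anterior neural plate and eye field, 20 of pluripotency, 19 Wnt ligands and 12 markers of fibroblast feeders. The nearest P53 peak to Wdr5 was 958781 bases away, and those to Trp53 and Rax were further. The peak lists therefore do not show the deleted alleles, and the genotypes are those of the labels.

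Other genes with an absent region within 1 kb of an end were not on the lists. They were Rnpepl1, Dyrk3, Pdcl, Naa20, Rap2b, Csn1s1, Exoc4, Esco2 and Sp1. Those of Rap2b, a Ras-related GTPase, and Sp1 were also called with the WDR5 antibody. Together with Bbc3, Zmat3 and Eda2r these make the 12 genes, 0.0548% of all protein-coding genes.

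The microRNA Mir34a is a known P53 target, and a region on its upstream side was found on a search around hairpins that was added after the values had been seen. Of 1005 hairpins, 7 (0.697%) lay within 20 kb of an absent region, and 4 (0.398%) within 10 kb. The closest were Mir3067 at 1588 bases and Mir7065 at 3545. Mir34a was at 19006 bases from a region (chr4:150048907-150049448) with fold enrichments of 5.06 and 4.85 in WT and a WT H3K4me3 peak at 4.42. Its mature RNAs from RefSeq are shown because they are the products of that locus, with the seed, bases 2 to 8, in capitals.
mmu-miR-34a-5p: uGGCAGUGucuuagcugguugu
mmu-miR-34a-3p: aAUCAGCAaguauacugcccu

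The cell state was checked by the presence of an H3K4me3 peak at marker genes. Of 5 pluripotent and epiblast markers, 4 had one in WT, 3 in KO and 5 in DKO, among them Pou5f1, Sox2 and Utf1 in each genotype. Of the longer list of 20 pluripotency genes, 14 had such a peak in WT, 4 in KO and 12 in DKO. None of 5 anterior neural markers had one in any genotype, Rax included, whereas the longer list of 18 anterior neural and eye field genes had 5 in WT, 1 in KO and 1 in DKO. Otx2, which is on that list, was counted here with the epiblast markers. Of 6 mesoderm and endoderm markers only Eomes had one, and of 5 fibroblast feeder markers only Thy1, both in WT alone. Of all protein-coding genes, 35.5% had such a peak within 1 kb of an end in WT, 3.2% in KO and 22.8% in DKO. The H3K4me3 lists held 9836 peaks in WT, 918 in KO and 6418 in DKO. The marker counts thus come from lists of unlike length, and whether they differ beyond that was not tested. Their part in the P53 comparison was not tested either.

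The 24 regions of DKO that were absent from WT were mostly also called in other libraries. The highest, in LOC100504180 on chromosome 10, was at 9.85 in DKO list 2 and was called in 5 other lists. Those in Camk1d, a calmodulin-dependent kinase, and Cdk8, a kinase of the Mediator complex, were at 9.26 and 8.13 in DKO list 2, and at 17.7 and 13.5 in WT WDR5 list 1. The DKO WDR5 lists also called both, at 12.8 and 9.56 in list 1 and at 12.2 and 8.96 in list 2. The next were near the zinc finger genes Zfp978 and Zfp982, at 7.44 and 6.03. Thus all 5 highest regions of this class met at least 4 lists of another antibody.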

How the data were processed

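Per the file headers, the authors ran MACS on paired-end fragments with no control, in version 2.1.2 for list 1 of WDR5 and P53 and 2.1.0.20150731 for the rest. The q-value cutoff was 0.01, the local background 10 kb, and the number of fragments kept at a position 2. The submitters' processing notes also name Bowtie2, SAMtools 1.5, bedtools, HOMER 4.10 and mm10, with no role for each. The deposited pileup is an unscaled coverage signal in fragments. The fold enrichment, a ratio of that pileup to the background around the peak, and the -log10 p and -log10 q values are also as deposited. They served to describe, rank or filter peaks, and were not scaled between lists.

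The 13 mitochondrial peaks of the P53 lists were left out. Intervals were merged, overlapped by 1 base or more and placed on RefSeq genes of GRCm38.p6 (21883 protein-coding genes, 17491 of them with a promoter window and none of those on chromosome 18) in Python 3.11.15 with pandas 2.3.3, numpy 2.4.6 and scipy 1.17.1. The overlap and motif code was tested on simulated data. Shares carry Wilson 95% intervals. Gene lists had 161 entries, all matched by symbol. The members, the lists and the division by other antibodies were chosen with earlier results of these data known. Named genes were those nearest to the 20 highest absent, 10 highest shared and 5 highest DKO regions, and listed genes with a P53 peak within 5 kb; a few of them are not reported here. A further few were chosen after their values were seen, among them the 8 shared regions of the P53 antibody alone, Zfp981, Zfp958, the genes of the promoter windows, Mir34a, Btg2, Gdf15 and the genes within 1 kb.

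Alternatives were other overlap rules, a -log10 q of at least 5, the top 50% of each list, lists of equal length, either WT list, each list left out, other gene windows, and regions of other antibodies left out, the last for H3K4me3 chosen after seeing the data.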

Additional observations from a re-analysis of the deposited data

How the results depend on the processing

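No paired analysis was possible because the comparison comes from no test and the lists of a group were not shown to be separate libraries. Over the planned and added alternatives, 82 of 100 values other than the half-site share stayed near the main value. Near meant within its interval, or within 1.5 times for counts and numbers of peaks. For median log2 ratios it meant within the width of the middle 50% of the main ratios. Some values could not move. The settings on either WT list and on both DKO lists leave the DKO share unchanged by definition. As 0 shared regions were in DKO list 1 only, leaving that list out kept every value of the WT regions. The WT lists share reads, so leaving either out is not an independent check. The count of 82 is therefore no measure of robustness. The half-site share of promoter windows stayed within its interval in 12 alternatives and moved in 2. The share of WT regions absent from DKO was 68.5% with P53 lists of equal length, 80.2% when absence meant no region called in both DKO lists, 91.6% without WDR5 regions and 96.1% without WDR5 or H3K4me3 regions. It was 74.7% to 80.2% with 1 list left out. The share of DKO regions absent from WT was 60.7%, 68.2% and 66.7% with lists of equal length, without WDR5 regions and without WDR5 or H3K4me3 regions, and 27.6% to 54.2% with 1 list left out. In the top 50% of each list, absent regions met a WT H3K4me3 peak in 0.901% and any other antibody in 1.80%. That setting also cut the H3K4me3 and WDR5 lists, so fewer of their peaks were left to meet. Shared regions met another antibody in 75% with lists of equal length and in 96.5% when both DKO lists had to call them, and in 87.7% to 96.5% with 1 list left out. Target genes numbered 2 with lists of equal length, 7 with peaks of either WT list, and 4 to 7 with 1 list left out. The ratio of peak numbers was 3.99 at a fold enrichment of at least 5. The motif at the regions themselves was not run, since no genome was used here. Depth limits what a list without a peak can show, since signal under the caller's threshold is not in a peak list.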
